A study of Homo sapiens with 2 samples.

Results

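Plasma membrane and lysosomal amino acid transporters were examined in RNA sequencing of cells whose label is MIA PaCa-2, an established human line of pancreatic ductal cancer. The members were the protein-coding genes of the solute carrier (SLC) families SLC1A, SLC3A, SLC6A, SLC7A, SLC36A, SLC38A and SLC43A, chosen by symbol, which gave 59 of 46427 gene rows. One library came from cells given vehicle and 1 from cells given iMQT_020, described in the labels as an inhibitor of mitochondrial glutamine transport, both for 48 hours. Each treatment had 1 library, no genetic change is named in the labels, and the dose is not given in the sources used here. There are therefore no replicates, so no difference could be checked against replicates, and an effect of the compound and any other difference between the 2 libraries cannot be told apart.

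Amino acids cross the plasma membrane by exchangers, which swap one amino acid for another, and by carriers driven by sodium or proton gradients, which load the cell. Exchangers of large neutral amino acids spend intracellular glutamine to bring in leucine and its relatives, and so depend on carriers that supply glutamine. Carriers in the lysosomal membrane release amino acids made by protein breakdown, and some of them report the lysosomal content to mTORC1, a kinase complex that promotes growth. Several plasma membrane carriers are known targets of ATF4, the transcription factor made when cells run short of amino acids. The 7 families also hold members that carry other substrates, among them carriers of GABA, taurine, creatine and monoamines in the SLC6A family.

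The libraries held 67095283 (vehicle) and 59139157 (iMQT_020) estimated read counts. The label was checked against genes of the line. The gene CDKN2A, deleted in MIA PaCa-2, was nevertheless present at 278 and 208 TPM (a level scaled by transcript length and library), and CD44, abundant in that line, stood at 0.0964 and 0.0209 TPM. MTAP (33.7 TPM vehicle, 26.2 TPM iMQT_020) and CDKN2B (8.04 TPM vehicle, 13.5 TPM iMQT_020), checked as deleted genes beside CDKN2A, were expressed too. Among genes checked as abundant beside CD44, the level of ANXA1 was low (3.13 TPM vehicle, 2.74 TPM iMQT_020). Only VIM went with the label, being high in both libraries (403 TPM vehicle, 438 TPM iMQT_020). Whether the cells are those of the label is thus uncertain. Of 12 markers of leukocyte, endothelial, fibroblast, acinar and islet cells, 12 had under 50 counts in both libraries and 7 were at 0 in both, including PTPRC, DCN, PRSS1 and INS, and their summed level was 0.539 TPM (vehicle) and 0.936 TPM (iMQT_020).

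Genes that reached 50 counts in either library are called measured, and 34 of the 59 transporters did. Of these 34, 1 had a level in the iMQT_020 library at least 2-fold higher, as did 2.15% of all 14805 measured genes, and 0 had one at least 2-fold lower, as did 3.09% of measured genes. Ratios are log2 values of iMQT_020 over vehicle, from counts scaled for library size (CPM). The median over the 34 transporters was −0.19, against −0.02 over all measured genes, and 26 of the 34 were below 0, against 52.7% of all measured genes. Exact 95% intervals of the ratio, which cover counting error only, lay wholly below 0 for 17 transporters and wholly above 0 for 7. Of all measured genes, 39.1% and 35% had such intervals. Most transporters thus differed by less than 1.5-fold, the exceptions being SLC6A13 on the higher side and SLC7A3 and SLC43A1 on the lower side. In all, 1 of 34 was at least 1.5-fold higher and 2 of 34 at least 1.5-fold lower, against 6.3% and 10.2% of measured genes.

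Across all measured genes the ratio moved with transcript sequence. Split into 10 bins by GC content, the AT-rich end had a median of 0.13 and the GC-rich end −0.31. Split likewise by transcript length, the short end had a median of −0.20 and the long end 0.18. The transporters had a median GC content of 51.4%, against 48.5% over all measured genes, and a median transcript length of 4242.5 bases, against 3256. Ratios were therefore also centred, by subtracting the median of genes alike in both GC content and length. Centring gave the transporters a median of −0.23, with 27 of 34 below 0, against 49.8% of centred genes. Among the 20 transporters with at least 1000 counts the median was −0.17, with 14 below 0 and 0 at least 2-fold apart. Of all genes with that many counts, 50.7% were below 0, and 2-fold differences were found for 0.322% on the higher and 0.956% on the lower side.

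**Figure D1:**
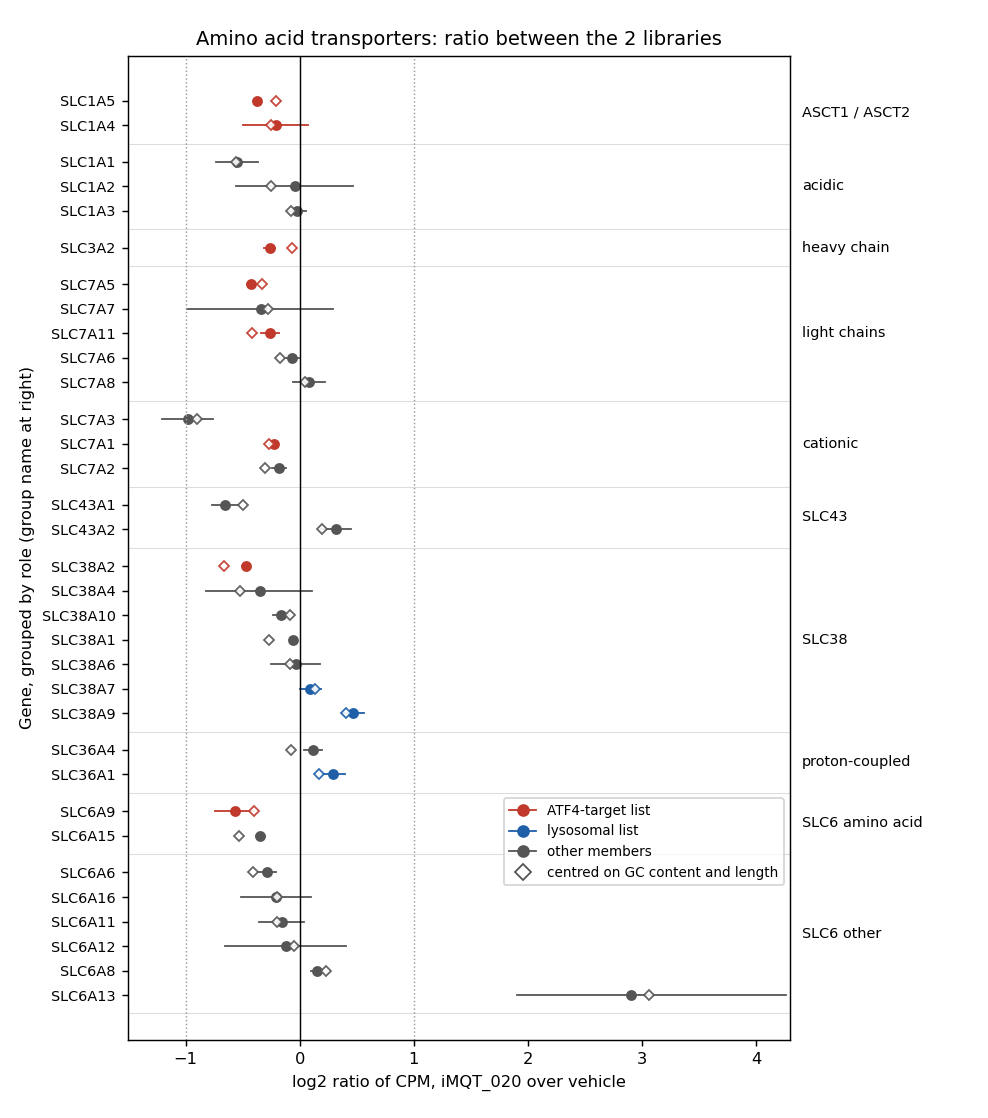
The horizontal axis gives log2 ratios of iMQT_020 over vehicle from CPM, and each line of the vertical axis is 1 of 33 measured transporters, grouped by role. Filled circles are ratios with exact 95% counting intervals, open diamonds are ratios centred on GC content and transcript length, and dotted lines mark 2-fold. SLC6A13 at 2.90 is the only circle beyond a dotted line, the 8 circles of the ATF4-target list lie below 0 and the 3 of the lysosomal list above 0.

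The sequences shown first belong to the start sites of the glutamine transporter SLC1A5, since the inhibitor is directed at mitochondrial glutamine transport and SLC1A5 encodes a glutamine transporter with a known mitochondrial variant. RefSeq (GRCh38.p14) lists 3 start sites for this gene on the minus strand of chromosome 19, at 46788594, 46787293 and 46784814. The promoter sequences, each of 250 bases before to 50 bases after a start site, were searched on both strands for TGATGNAA, the core of the ATF4 response element, and for CACGTG, the E-box read by MYC and by the lysosomal regulator TFEB. Neither motif was found in the window of the SLC1A5 start at 46788594. These motifs do not overlap in the sequences shown. Lines give the motif in capitals with up to 10 bases on each side, 5′ to 3′ along the gene, and the last 3 are E-boxes of members described further on.
SLC1A5, before the start at 46784814, minus strand of chr19:46784894-46784921: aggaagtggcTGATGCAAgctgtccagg
SLC1A5, before the start at 46787293, minus strand of chr19:46787328-46787353: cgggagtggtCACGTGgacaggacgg
SLC7A5, minus strand of chr16:87869622-87869647: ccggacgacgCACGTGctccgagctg
SLC43A1, minus strand of chr11:57515799-57515824: gcgggcgagtCACGTGcgcgtgaaac
SLC36A1, plus strand of chr5:151447550-151447575: ctcaagggagCACGTGacctcggcct

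Promoters were present in the RefSeq table for 26 of the 34 measured transporters, with 47 sequences. The ATF4 core was found in 6 of these 47 sequences, or 12.8%, against 1.95% of 16536 promoters of measured genes and 3.62% of all 35116 promoters. The 6 belonged to SLC1A3, SLC1A4, SLC1A5, SLC3A2, SLC7A1 and SLC38A1, of which 4 are on the ATF4-target list described further on. E-boxes were found in 8 of the 47 sequences, or 17.0%, against 9.39% and 7.26%. These 8 belonged to SLC1A5, SLC6A16, SLC7A5, SLC7A7, SLC7A8, SLC36A1, SLC38A7 and SLC43A1. A match describes the letters in this window and not a bound site.

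Among the neutral exchangers, SLC1A5, also called ASCT2, was per transcript length (TPM) the most abundant transporter in both libraries. Values are given with vehicle first and iMQT_020 second throughout. SLC1A5 had 21128 and 14416 counts, at 248 and 198 TPM. Its log2 ratio of −0.38 (95% counting interval −0.41 to −0.34) was 1.30-fold lower with iMQT_020, and 18.7% of measured genes had a lower ratio. After centring on GC content and length it was −0.21. The gene row sums 3 RefSeq transcripts, so transcripts from the 3 start sites were not separated. Counts and FPKM together imply a mean transcript length for each library, and for SLC1A5 this length differed between libraries by a log2 value of −0.0015. The paralog SLC1A4, ASCT1, which exchanges alanine, serine and cysteine, had 238 and 182 counts. Its log2 ratio of −0.21 had an interval that spans 0 (−0.50 to 0.07). On the TPM scale, which is per transcript length, SLC1A4 stood at 1.75 in the vehicle library, far under SLC1A5.

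The acidic amino acid carriers bring glutamate and aspartate into the cell. SLC1A3, the most abundant of them here, had 2844 and 2479 counts, at 26.6 and 26.0 TPM, and a log2 ratio of −0.02 (−0.10 to 0.06). SLC1A1, which also takes up cysteine, had 635 and 385 counts and a log2 ratio of −0.55 (−0.73 to −0.36). On log2(FPKM + 1) the ratio was −0.34, and it was −0.51 on FPKM without the 1 added. SLC1A2, the main glutamate carrier of astrocytes, was near the limit of measurement with 71 and 61 counts, and its interval ran from −0.56 to 0.47. Of the 3 intervals, only that of SLC1A1 excluded 0. SLC1A6 had 25 and 2 counts, under the minimum, and SLC1A7 was at 0 in both libraries.

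**Figure D2:**
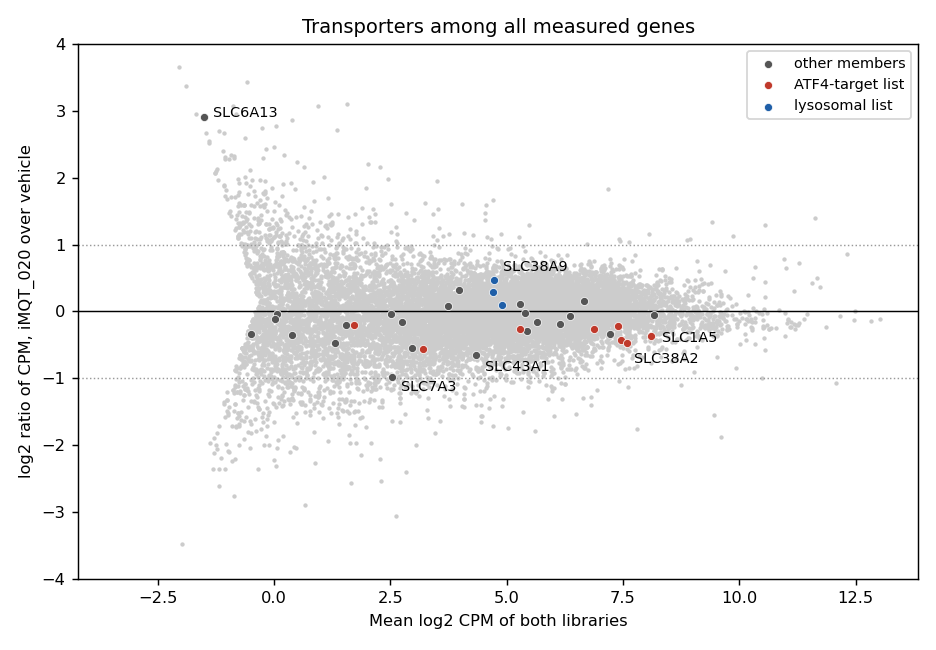
The horizontal axis gives the mean log2 CPM of both libraries, with 0.01 CPM added, and the vertical axis the log2 ratio, iMQT_020 over vehicle. Gray points are measured genes, of which 17 lie outside the vertical limits, and colored points are transporters of the ATF4-target list, the lysosomal list and the rest. SLC6A13 lies among genes of few counts, while SLC1A5 and SLC38A2 lie below 0 at high level and SLC38A9 at 0.47.

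Heteromeric transporters consist of a heavy chain that carries the complex to the membrane and a light chain that transports. SLC3A2, the heavy chain known as CD98, had 8577 and 6321 counts, at 139 and 120 TPM. Its log2 ratio was −0.26 (−0.31 to −0.22), and −0.06 after centring on GC content and transcript length. The other heavy chain, SLC3A1, had 6 and 18 counts, and it overlaps PREPL, which had 7983 and 7480 counts. Its reads could not be told apart from those of PREPL by strand, as the strand setting is not given in the sources used here.

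Of the light chains, SLC7A5, or LAT1, which brings in leucine and other large neutral amino acids in exchange for glutamine, was the most abundant. It had 13693 and 9020 counts, at 101 and 77.8 TPM, and a log2 ratio of −0.43 (−0.46 to −0.39). SLC7A11, the cystine and glutamate exchanger xCT, had 2849 and 2106 counts and a log2 ratio of −0.26 (−0.34 to −0.18), or −0.42 after centring. Both of these light chains thus had intervals wholly below 0, as did 39.1% of all measured genes.

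SLC7A6 and SLC7A7 are light chains that export cationic amino acids in exchange for neutral ones. SLC7A6 had 5650 and 4786 counts, at 30.8 and 30.1 TPM, and a log2 ratio of −0.06 (−0.12 to −0.01), or −0.17 after centring. It overlaps SLC7A6OS, which had 1765 and 1545 counts. SLC7A7, with 53 and 37 counts, had a log2 ratio of −0.34 with an interval that spans 0 (−0.99 to 0.29). SLC7A8, or LAT2, which exchanges neutral amino acids of a wider range than LAT1, was the 1 measured light chain above 0, with 869 and 816 counts and a log2 ratio of 0.09 (−0.05 to 0.22). SLC7A9, SLC7A10 and SLC7A13 were at 0 counts in both libraries.

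Since every one of these 5 measured light chains pairs with SLC3A2, their summed level was set beside it. The 5 light chains summed to 150 TPM with vehicle and 125 TPM with iMQT_020. The level of SLC3A2 was 0.928 and 0.962 of that sum. SLC7A5 made up 67.6% and 62.3% of the light chain sum. Heavy and light chains were thus at similar mRNA levels in both libraries, with a smaller part of SLC7A5 in the iMQT_020 library. With 1 library per group these differences have no error beyond counting.

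**Figure D3:**
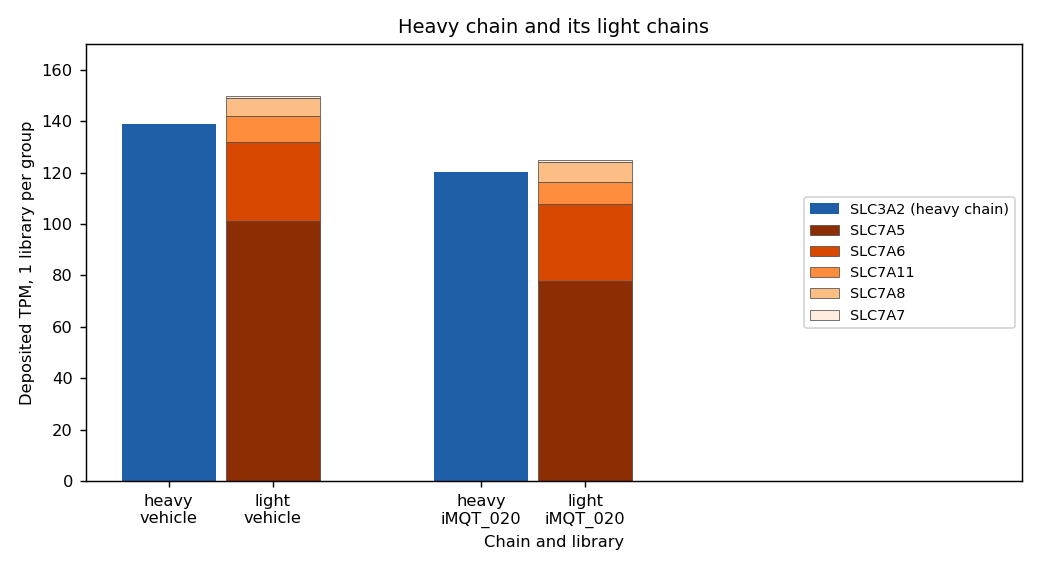
Bars give deposited TPM from 0 in the vehicle and iMQT_020 libraries, for the heavy chain SLC3A2 and for its 5 measured light chains stacked. The light chain stack reaches 150 TPM with vehicle and 125 TPM with iMQT_020, beside 139 and 120 TPM of SLC3A2.

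The cationic amino acid carriers take up arginine, lysine and ornithine and need no heavy chain. SLC7A1, the widespread arginine carrier, had 12098 and 9160 counts, at 55.1 and 48.6 TPM, and a log2 ratio of −0.23 (−0.26 to −0.19). SLC7A2 had 5048 and 3937 counts and a log2 ratio of −0.18 (−0.24 to −0.12), or −0.30 after centring. SLC7A3 had the lowest ratio of all measured transporters, with 546 and 245 counts and 8.22 and 4.31 TPM. Its log2 ratio of −0.98 (−1.20 to −0.76) was 1.97-fold lower with iMQT_020, just within the 2-fold rule, and 3.33% of measured genes had a lower ratio. The 3 measured carriers all had intervals wholly below 0, as did 39.1% of all measured genes, and the least abundant of them differed most. SLC7A4 and SLC7A14 were at 0 counts in both libraries.

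The SLC43 carriers let large neutral amino acids pass down their gradient without exchange. SLC43A1, or LAT3, had 1693 and 951 counts, at 22.5 and 14.9 TPM, and a log2 ratio of −0.66 (−0.77 to −0.54). SLC43A2, or LAT4, had 949 and 1047 counts, at 3.89 and 5.04 TPM, and a log2 ratio of 0.32 (0.19 to 0.45). These related carriers of leucine thus lay on opposite sides of 0, with counting intervals that do not meet. After centring on GC content and transcript length they were at −0.50 and 0.19. SLC43A3, a carrier of purine bases, had 0 and 3 counts.

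The sodium-coupled neutral carriers of the SLC38 family load cells with glutamine, alanine and serine, and some members work in the lysosome. SLC38A2, whose mRNA is known to be induced by amino acid shortage, had 15189 and 9692 counts, at 106 and 79.2 TPM. Its log2 ratio was −0.47 (−0.51 to −0.43), and −0.66 after centring. SLC38A1, the other abundant glutamine carrier of the family, had 19526 and 16616 counts, at 82.3 and 82.4 TPM. Its log2 ratio was −0.06 (−0.09 to −0.03), and its direction depended on the unit, as log2(TPM + 1) gave 0.0015, while centring gave −0.27. The median of all measured genes was −0.02 from counts and 0.02 on log2(TPM + 1), so SLC38A1 lay below that median in both units. SLC38A2 was thus above SLC38A1 in TPM in the vehicle library and below it in the iMQT_020 library.

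Among the other members of the family, SLC38A10 had 3565 and 2820 counts and a log2 ratio of −0.16 (−0.23 to −0.09). It was −0.09 after centring and −0.09 on log2(TPM + 1). SLC38A6 had 388 and 335 counts and an interval from −0.25 to 0.18, and it overlaps TRMT5, which had 3482 and 3800 counts. SLC38A4, which also carries cationic amino acids, had 98 and 68 counts and a log2 ratio of −0.35 with an interval that spans 0 (−0.82 to 0.11). SLC38A5 had 8 and 14 counts, and SLC38A3, SLC38A8 and SLC38A11 were at 0 in both libraries.

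Of the 4 members listed as lysosomal, 3 were measured and 3 of 3 had ratios above 0, against 47.3% of all measured genes, with 0 at least 2-fold higher. SLC38A9, the arginine sensor that signals from the lysosome to mTORC1, had 1507 and 1844 counts, at 19.6 and 27.1 TPM. Its log2 ratio of 0.47 (0.37 to 0.57) was 1.38-fold higher with iMQT_020, and 90.4% of measured genes had a lower ratio. SLC36A1, a proton-coupled exporter of small neutral amino acids, had 1591 and 1729 counts, at 9.91 and 12.4 TPM, and a log2 ratio of 0.30 (0.20 to 0.39). SLC38A7, which exports glutamine from the lysosome, had 1944 and 1836 counts, at 16.2 and 17.7 TPM, and a log2 ratio of 0.09 (0.00 to 0.19). The 3 ratios after centring were 0.40, 0.17 and 0.13, and each stayed above 0 under all other alternatives run that measured it. The median GC content of these 3 was 51.0% and their median transcript length 4058 bases. This list was compiled with earlier results of these libraries known. Lysosomal carriers outside the 7 families, SLC15A4, CTNS, MFSD12 and SLC66A1, had log2 ratios of −0.38, −0.11, −0.07 and −0.05. After centring these were −0.37, −0.15, 0.23 and 0.25. Ratios above 0 were thus not shared by all lysosomal carriers.

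The SLC36 family has 1 further measured member, SLC36A4, a carrier of proline and tryptophan. It had 2533 and 2429 counts, at 18.2 and 18.4 TPM, and a log2 ratio of 0.12 (0.04 to 0.20). Its direction was not stable, with −0.03 on log2(FPKM + 1) and −0.07 after centring. SLC36A2 had 3 and 0 counts and SLC36A3 was at 0 in both libraries.

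Within the SLC6 family, 2 measured members carry amino acids. SLC6A15, a sodium-coupled carrier of branched-chain amino acids and proline known mainly from the brain, had 11339 and 7907 counts. At 83.0 and 67.8 TPM it was among the 6 most abundant transporters in both libraries, and its log2 ratio was −0.34 (−0.39 to −0.30), or −0.53 after centring. SLC6A9, the glycine transporter GlyT1, had 751 and 448 counts, at 8.08 and 5.65 TPM. Its log2 ratio was −0.57 (−0.74 to −0.40), or −0.40 after centring. SLC6A9 overlaps CCDC24, which had 212 and 110 counts. SLC6A20, a proline carrier, had 14 and 16 counts, and SLC6A5, SLC6A7, SLC6A14, SLC6A17, SLC6A18 and SLC6A19 were at 0 in both libraries.

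The remaining SLC6 genes carry other substrates. SLC6A8, the creatine transporter, had 6413 and 6303 counts, at 55.2 and 63.7 TPM, and a log2 ratio of 0.15 (0.10 to 0.20). SLC6A6, the taurine transporter, had 3196 and 2319 counts and a log2 ratio of −0.29 (−0.36 to −0.21), and it overlaps GRIP2, which had 407 and 183 counts. These 2 abundant carriers thus lay on opposite sides of 0.

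Among the GABA carriers of this family, SLC6A13 was the 1 transporter that passed the 2-fold rule. It had 8 and 56 counts, at 0.106 and 1.14 TPM. Its log2 ratio of 2.90 (1.91 to 4.26) was 7.48-fold higher with iMQT_020. On log2(TPM + 1), a scale that understates the change of low genes, the ratio was 0.95, within 2-fold, and 0.935% of genes at 1 TPM or more were at least 2-fold higher on it. With a minimum of 200 counts the gene was not measured, and no transporter was then at least 2-fold higher. SLC6A13 reached the minimum of the main analysis in the iMQT_020 library only. A gene this low with vehicle is measured only when its iMQT_020 count is far higher, so its 2-fold call depends on how genes were selected.

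SLC6A11, which also carries GABA, had 475 and 377 counts and a log2 ratio of −0.16 (−0.36 to 0.04), but 0.04 on log2(TPM + 1), so its direction depended on the unit. SLC6A12, the betaine and GABA carrier, had 70 and 57 counts, with an interval from −0.65 to 0.41, and SLC6A16, an orphan member, had 210 and 161 counts, with an interval from −0.51 to 0.10. Of these low-level carriers, none had an interval that excludes 0. The monoamine carriers SLC6A2 and SLC6A3 were at 0 counts and SLC6A4 had 3 and 7.

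The length that counts and FPKM imply differed between libraries by at least 0.1 log2 for 5 of the 34 transporters, against 8.48% of all measured genes with a value. Among these were SLC6A13 at −0.39, SLC6A11 at −0.16, SLC7A7 at 0.14 and SLC36A4 at 0.15. A value below 0 means a shorter implied length in the iMQT_020 library, as when the estimates place more reads on shorter transcripts. The other 29 transporters lay between −0.04 and 0.06, so for them counts and FPKM gave nearly the same ratio apart from a shift common to all genes.

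**Figure D4:**
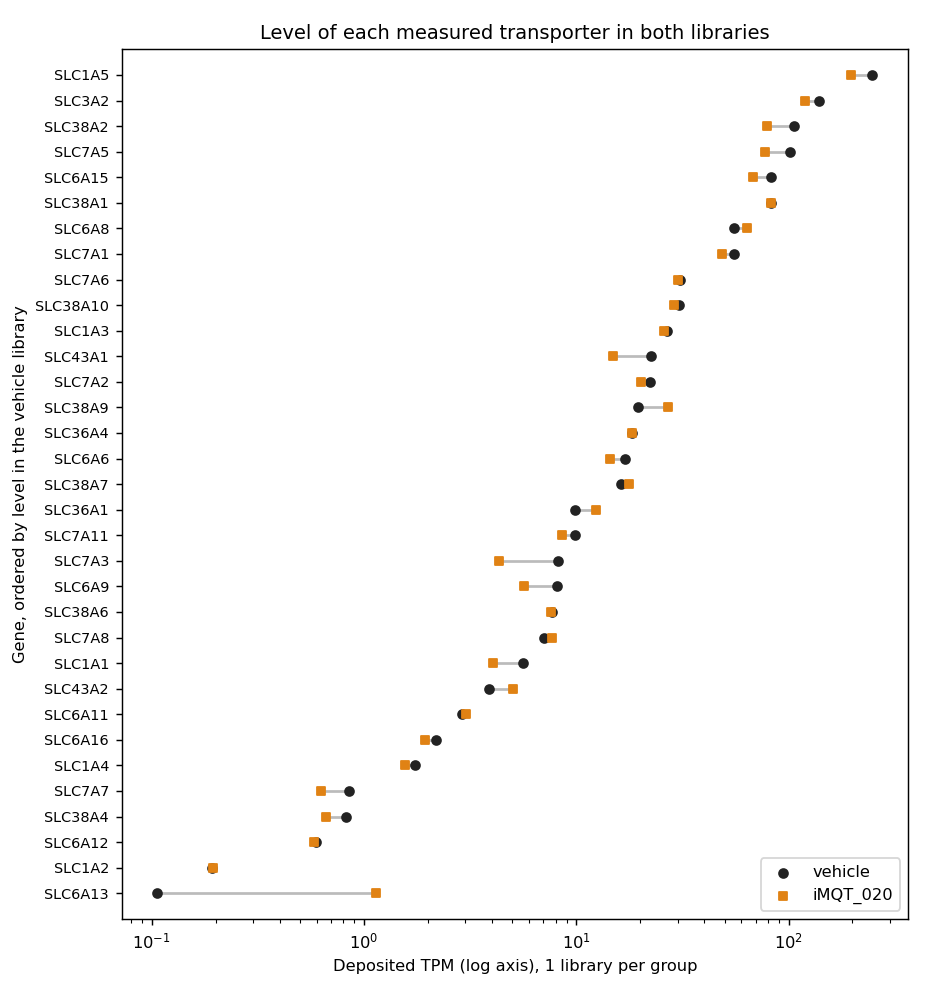
The horizontal axis gives deposited TPM on a log scale and each line of the vertical axis is 1 of 33 measured transporters, ordered by level in the vehicle library. Black circles are the vehicle library and orange squares the iMQT_020 library. SLC1A5 is highest in both, at 248 and 198 TPM, and SLC38A9, SLC36A1, SLC43A2, SLC6A8 and SLC6A13 are among those with the square to the right.

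On the per-length TPM scale, the levels of the 59 transporters summed to 1146 with vehicle and 1001 with iMQT_020. SLC1A5 was 21.6% and 19.7% of this sum, and the 7 most abundant members together 71.1% and 68.8%. SLC38A1 moved from rank 6 to rank 3 and SLC38A9 from rank 14 to rank 11, while SLC43A1 moved from rank 12 to rank 16 and SLC7A3 from rank 20 to rank 24. SLC1A5, SLC3A2, SLC6A8, SLC7A1, SLC7A6 and SLC38A10 held the same rank in both libraries, as did SLC7A2, SLC36A1, SLC7A11, SLC6A11, SLC6A16, SLC1A4 and SLC38A4. Total RNA per cell and cell number are not known, so a lower share of reads and less mRNA per cell cannot be told apart.

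Of the 8 transporters listed as known ATF4 targets (SLC1A4, SLC1A5, SLC3A2, SLC6A9, SLC7A1, SLC7A5, SLC7A11 and SLC38A2), 8 of 8 had a log2 ratio below 0, against 52.7% of all measured genes, and 0 were at least 2-fold lower. The ratios ran from −0.57 for SLC6A9 to −0.21 for SLC1A4, with a median of −0.32. Of the 8 intervals, 7 lay wholly below 0. Of all measured genes, 39.1% had intervals wholly below 0 and 35% wholly above 0, so an interval that excludes 0 was common. After centring on GC content and transcript length the median was −0.30, with ratios from −0.66 for SLC38A2 to −0.06 for SLC3A2. Each of the 8 kept its sign under all alternatives run that measured it. Their summed level was 669 TPM with vehicle and 539 TPM with iMQT_020. The 26 other measured transporters had a median of −0.09, with 18 below 0. After centring, the median of these 26 was −0.18, with 19 below 0, so the medians of both sets lay closer together. Their summed level, low members included, was 476 and 462 TPM, so the difference in the summed level of all transporters lay mainly in the ATF4-target list. The list was compiled with earlier results of these libraries known, and no test of the difference between the 2 sets was possible.

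The genes through which lysosomal amino acids reach mTORC1 were read beside the transporters. All 30 listed genes, which encode Rag GTPases, the Ragulator complex that anchors them, the GATOR complexes and sestrins that regulate them, and mTORC1 itself, were measured. Of these, 15 lay above 0, 15 below 0 and 0 were 2-fold apart in either direction, with a median of −0.01. SESN3, a sestrin that restrains mTORC1, had the highest ratio, with 7262 and 8915 counts and a log2 ratio of 0.47 (0.43 to 0.52). LAMTOR4, a Ragulator subunit, had the lowest, with 3288 and 1877 counts and a log2 ratio of −0.63 (−0.72 to −0.55). After centring on GC content and transcript length, 17 lay above 0 and 12 below, with a median of 0.05. SESN3 was then at 0.31 and LAMTOR4 at −0.34, and the extremes were SESN2 at 0.32 and FNIP1 at −0.53. The list as a whole thus lay near the median of all measured genes.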

How the data were processed

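Gene expression was measured by RNA sequencing of total RNA in 1 library per group. Mapping was to GRCh38 by HISAT2 and Bowtie2, per the labels' protocols. The names StringTie and edgeR also appear, with neither version nor role, per the submitters' processing notes. The authors deposited whole numbers of estimated counts per gene, which may be rounded, beside FPKM, adjusted by the authors for transcript length and depth, and TPM, which the authors brought to a common total. Strand setting and counting step: not given in the sources used here. FPKM of 20787 genes stand again in a second deposited table and matched within 1e-05. Columns were assigned to samples by name, and 0 columns were left over.

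Counts were scaled by TMM in edgeR 4.0.16 under R 4.3.3, and 0.5 was the prior count in log2 ratios of CPM. With 1 library per group there is no test and no p-value, and differences were counted from 2-fold upward. Exact Clopper-Pearson 95% intervals cover counting error only and can be too narrow for estimated counts. In simulated counts of this comparison with 14607 measured genes, 95.2% of intervals held the true ratio and 0 unchanged genes passed the 2-fold rule. The simulated counts held counting error only, the same assumption that the intervals make, and no variation between replicates. They check the calculation and do not measure how often real libraries differ by 2-fold. The naming rule took every measured transporter (1 is not reported here and not drawn by name, but is in all counts and medians), and the members with the highest and lowest ratio of each other list. Members and lists were chosen with earlier results of these data known. Gene positions and promoters came from RefSeq (GRCh38.p14), and GC content and length from canonical GENCODE 44 transcripts, found for 93.6% of measured genes and 34 of 34 measured transporters. Alternatives changed the scaling (median of ratios from DESeq2 1.42.0, upper quartile, total counts), the minimum count (none, 10, 200), the prior count (5), the size rule (1.5-fold, or the counting interval alone), the unit (deposited TPM or FPKM, with 1 added before log2, for genes reaching 1) or centred the ratio within bins made jointly from GC content and length, 10 each. Sets without members that overlap another counted gene, or without SLC6 carriers of other substrates, were added after the data were seen. Python 3.11.15, numpy 2.4.6, pandas 2.3.3, scipy 1.17.1 and matplotlib 3.10.9 were used.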

Additional observations from a re-analysis of the deposited data

How the results depend on the processing

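The median log2 ratio of the transporters lay between −0.23 and −0.11 under the alternatives run. The count of transporters at least 2-fold higher, 1 in the analysis as reported, was 2 with a minimum of 10 counts, which adds SLC3A1, 4 with no minimum, 0 with a minimum of 200 counts, 0 with TPM and 0 with FPKM, 0 without the SLC6 carriers of other substrates, and 7 by the counting interval alone. The count at least 2-fold lower, 0 as reported, was 1 with a minimum of 10 counts, which adds SLC1A6, 2 with no minimum, 2 by the 1.5-fold rule and 17 by the counting interval alone. Both counts with no minimum include genes at 0 in a library, whose ratio depends on the prior count. Of all measured genes, 10.2% were at least 1.5-fold lower, and 35% and 39.1% had intervals wholly above and wholly below 0. Transporters measured were 38 with a minimum of 10 counts, 41 with none and 28 with 200. The share of all genes past 2-fold was not counted at these minimums, so their counts have no comparison. The SLC1A5 ratio was −0.33 with TPM and −0.21 after centring on GC content and length. Of the 34 transporters, 31 kept the sign of their ratio under every alternative that measured them, 24 below 0 and 7 above 0, and SLC6A11, SLC36A4 and SLC38A1 did not. No paired analysis was possible because each group has 1 library. At this depth, ratios of transporters with few counts, such as SLC1A2 and SLC7A7, have intervals too wide to place them above or below 0.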

Other observations

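Of 8 listed lysosomal or plasma membrane carriers of amino acids and peptides outside the 7 families, 5 were measured and 0 were 2-fold apart in either direction. SLC15A4, a lysosomal carrier of histidine and peptides, had the lowest ratio, with 2394 and 1633 counts and a log2 ratio of −0.38 (95% counting interval −0.47 to −0.28). SLC16A10, a plasma membrane carrier of aromatic amino acids, had the highest, with 3080 and 2728 counts and an interval from −0.07 to 0.08. The lysosomal cystine exporter CTNS, the lysosomal cysteine importer MFSD12 and the lysosomal cationic amino acid exporter SLC66A1, named after their values were seen, had log2 ratios of −0.11, −0.07 and −0.05. After centring on GC content and transcript length they were at −0.15, 0.23 and 0.25, so the direction of the last pair depended on that choice.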
